A study of Mus musculus with 24 samples.

Results

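The expression of 9 genes was followed in mouse embryonic stem (ES) cells and embryoid bodies that differed in EED. The genes were 6 transcription factors of the trophoblast, Gata2, Gata3, Cdx2, Hand1, Tfap2a and Tfap2c, and the simple epithelial keratins Krt8, Krt18 and Krt19. They were taken by symbol from the deposited count table, where all 9 of them were among 23284 gene rows. The 4 genotypes, each of C57BL/6 origin, were KO+N-KR, KO+WT, KO and f/f. KO is a conditional Eed line treated with 800 nM 4-hydroxytamoxifen. KO+WT and KO+N-KR are such knockout cells that carry wild-type EED or a form called N-KR, which the labels do not spell out, and f/f is the conditional line without tamoxifen, whose genotype field reads wild type. Each genotype was sampled in 3 states, namely 3i, as the labels call it, and embryoid bodies of day 1 and of day 2. Each of the 12 groups had 2 libraries of poly(A) RNA, 24 in all. ES cells were kept with serum and LIF on embryonic fibroblast feeders, per the labels' protocols, which do not describe the 3i medium. The series title links loss of the Polycomb complex PRC2 through SKP1A to activation of genes that Polycomb silences, and the question taken up here is how trophoblast regulators and keratins stood with and without EED.

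EED is a core subunit of PRC2, which methylates histone H3 and keeps developmental genes silent in ES cells, many of them with CpG-rich promoters. The trophoblast is the outer layer of the blastocyst that later forms much of the placenta, and mouse ES cells rarely enter that lineage. CDX2, GATA3 and TFAP2C take part in setting up its identity, HAND1 in trophoblast giant cells, and the keratins KRT8, KRT18 and KRT19 form the filaments of its epithelium. A keratin filament pairs a type II keratin such as KRT8 with a type I keratin such as KRT18 or KRT19.

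Promoter sequence is shown for 4 genes, because Gata3 and Gata2 differed most between KO and f/f at day 2 among the transcription factors, and because Krt8 and Krt18 are partners in the filament whose starts lie 23.9 kb apart on chromosome 15. Each line holds the 250 bases before the annotated start from RefSeq (GRCm38.p6), 5′ to 3′ on the strand of the gene, with every CpG in capitals.
Gata3, chr2:9878601-9878850, minus strand: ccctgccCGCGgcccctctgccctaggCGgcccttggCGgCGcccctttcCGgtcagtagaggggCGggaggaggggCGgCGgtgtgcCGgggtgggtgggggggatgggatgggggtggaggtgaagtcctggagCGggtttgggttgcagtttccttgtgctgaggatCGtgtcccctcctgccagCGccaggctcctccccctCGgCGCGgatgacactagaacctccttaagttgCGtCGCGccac
Gata2, chr6:88193641-88193890, plus strand: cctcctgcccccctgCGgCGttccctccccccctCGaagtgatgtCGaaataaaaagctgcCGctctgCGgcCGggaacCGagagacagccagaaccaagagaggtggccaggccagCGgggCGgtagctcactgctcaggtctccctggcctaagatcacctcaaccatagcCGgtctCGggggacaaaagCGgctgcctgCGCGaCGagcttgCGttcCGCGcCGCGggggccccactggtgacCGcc
Krt8, chr15:102004343-102004592, minus strand: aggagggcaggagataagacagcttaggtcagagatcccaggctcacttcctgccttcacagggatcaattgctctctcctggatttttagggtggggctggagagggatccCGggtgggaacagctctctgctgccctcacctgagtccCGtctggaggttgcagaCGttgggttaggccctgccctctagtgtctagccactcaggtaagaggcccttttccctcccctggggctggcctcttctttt
Krt18, chr15:102027966-102028215, plus strand: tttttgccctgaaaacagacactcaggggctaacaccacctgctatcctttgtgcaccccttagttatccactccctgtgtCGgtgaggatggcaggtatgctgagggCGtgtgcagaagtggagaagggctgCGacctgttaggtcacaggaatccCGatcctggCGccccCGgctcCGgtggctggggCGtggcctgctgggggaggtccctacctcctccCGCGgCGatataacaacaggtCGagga
The window of Gata3 held 19 CpGs and that of Gata2 held 22, against a median of 6 over all 32851 windows of the same length. Krt18 had 12 CpGs in its window and Krt8 had 3. The AP-2 motif GCCNNNGGC, searched on both strands with overlaps allowed, was found 3 times in the Gata3 window and 1 time in that of Krt18, and it occurred in 13.7% of all windows. The GATA motif GATAAG was found 1 time in the Krt8 window and in 6.55% of all windows. The second window of Gata2, nearer to the body of the gene, held 24 CpGs, while Cdx2 had 13 and both windows of Tfap2a had 10. Windows were found for 6 of the 9 genes, not for Hand1, Tfap2c and Krt19. These matches describe letters only, and the build differs from the mm9 build of the counts.

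Both libraries of each group agreed nearly within sampling noise, with a variance of their count differences 1.10 to 1.18 times that of binomial sampling, against 2.81 to 15.5 times between genotypes of a state. Their sum was used as 1 sample, so 12 samples remained, with totals between 18017598 and 25160294 counts. A p-value for genotypes therefore measures how evenly a difference between single lines recurred over 3 states, and one for states how evenly it recurred over 4 genotypes. Neither measures the spread between independent lines. Tamoxifen was given to all genotypes but f/f. In any comparison with f/f, therefore, genotype, drug and line history cannot be told apart, and among the other 3 genotypes line history and genotype cannot. Eed itself stood at 170.1, 181 and 121 CPM (counts scaled to sequencing depth) in KO+N-KR at 3i, day 1 and day 2, at 388, 372 and 187 CPM in KO+WT, at 139.6, 172 and 102 CPM in KO, and at 176, 219 and 131 CPM in f/f. Such reads over the whole gene do not check the deletion. Eed RNA was lower in KO+N-KR than in KO+WT in each state, so between these lines the form of EED and the amount of its RNA cannot be told apart either. All 10 pluripotency markers stood above 1 CPM in every sample.

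The 9 genes spanned a wide range of levels. Per kilobase of exon, the mean over 12 samples was 29.6 CPM for Krt18, 21.3 for Tfap2c, 11.4 for Krt8 and 4.22 for Krt19. Gata2 followed with 1.20 CPM per kilobase, Gata3 with 0.568, Tfap2a with 0.475, Hand1 with 0.289 and Cdx2 with 0.0597. Ranges over samples overlapped between Gata3, at 0.143 to 1.74 CPM per kilobase, and Tfap2a, at 0.267 to 0.726, so their order is not separated by the spread. Gata2 and Hand1 also overlapped both of them, each other and Cdx2. Krt18, at 13.4 to 61.4 CPM per kilobase, Tfap2c, at 3.73 to 50.7, and Krt8, at 7.06 to 18.5, overlapped as well, as did Tfap2c and Krt19, at 2.05 to 6.20. Gata2 reached 4.66 CPM per kilobase at its highest and so overlapped Tfap2c and Krt19 too. Of the 6 transcription factors, Tfap2c alone had a mean within the range of the keratins. Cdx2 had 34 reads in all, at most 6 in a sample.

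**Figure D1:**
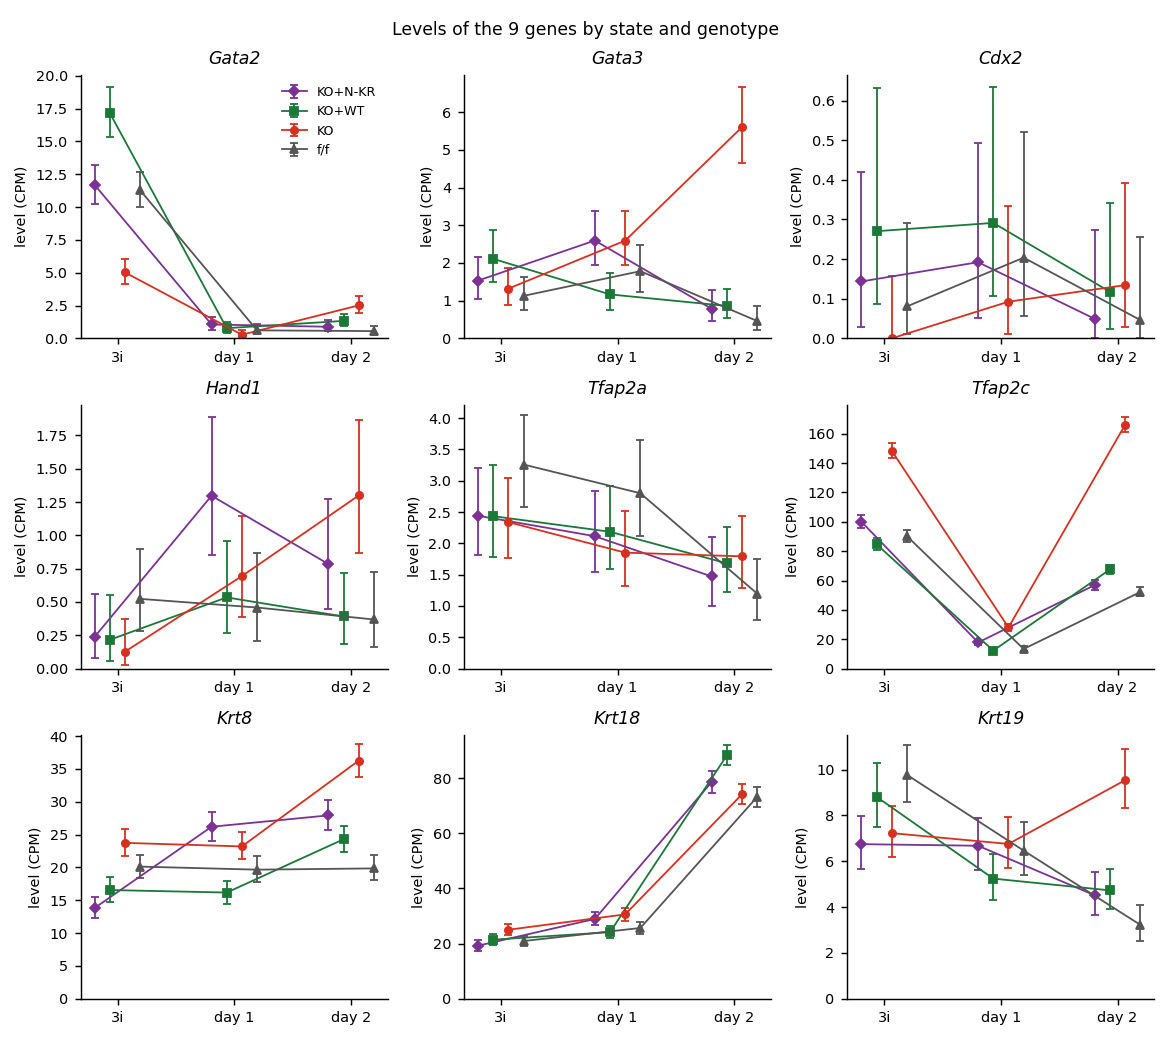
Level of each of the 9 genes in CPM (vertical axes, linear from 0) at 3i, day 1 and day 2 in KO+N-KR, KO+WT, KO and f/f; each point is the sum of 2 libraries and bars are 95% exact Poisson intervals, which cover counting error only. Gata3, at 5.60 CPM, and Tfap2c, at 166 CPM, were highest in KO at day 2, while Krt18 was between 73.2 and 88.2 CPM at day 2 in all 4 genotypes.

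Tfap2c, which encodes the AP-2 gamma factor of trophoblast and of primordial germ cells, was higher in KO than in the other genotypes in all 3 states. At 3i, day 1 and day 2 it stood at 100.1, 17.8 and 57.0 CPM in KO+N-KR, at 84.8, 12.2 and 67.6 CPM in KO+WT, at 149, 28.0 and 166 CPM in KO, and at 90.3, 13.3 and 52.2 CPM in f/f. The KO values lay above the other 3 within each state, and day 1 was the lowest state in every genotype. In edgeR's quasi-likelihood test with Benjamini-Hochberg adjustment over 15220 genes, Tfap2c rose 2.24-fold in KO against f/f (log2 fold change 1.17 ± 0.16 SE, adjusted p = 0.00492, higher in 3 of 3 states). That made 1 of 8 tested genes, in a comparison where 8.77% of all genes were called. Set against KO, Tfap2c fell 2.13-fold in KO+WT (log2 fold change -1.09 ± 0.16, adjusted p = 0.000717), again as 1 of 8, where 15.8% of all genes were called. In KO+N-KR against KO it fell 1.93-fold (log2 fold change -0.95 ± 0.16, adjusted p = 0.00177), 1 of 8 beside a background of 15.4%. In KO+WT against f/f the log2 fold change was 0.07 ± 0.16 (adjusted p = 0.828). Without the day 1 samples, KO against f/f gave Tfap2c a log2 fold change of 1.20 with an adjusted p of 0.136, and 0 of all genes were called in that fit.

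The difference of Tfap2c in KO widened from 3i to day 2. KO over f/f was 1.64-fold at 3i, 2.09-fold at day 1 and 3.18-fold at day 2. Each of these is a ratio of single samples with no replicate check. Germ cell markers, 7 genes, summed in KO to 319, 171 and 246 CPM over the 3 states and in f/f to 273, 151 and 170.2 CPM, and none of the 7 was at 0 in any sample. Kit held the largest share of the sum at 3i, with 197 CPM in KO and 172 CPM in f/f. Across states Prdm1 rose in KO against f/f (log2 fold change 0.51 ± 0.15, adjusted p = 0.0461), Dnd1 fell (-0.52 ± 0.13, adjusted p = 0.0298), and the median of the 7 was 0.45. At day 2 the median log2 ratio was 0.51 over the 6 markers with 5 CPM or more in the higher sample. Of these, 1 was at least 2-fold higher in KO, Dppa3, at 22.7 CPM in KO and 10.5 CPM in f/f, and 0 were lower. Among all genes 1.97% differed that much in either direction. The part of such cells in the level of Tfap2c was not tested. In bulk RNA, fewer cells of a type and less RNA per cell cannot be told apart.

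Gata3, a GATA factor that acts beside CDX2 in early trophoblast, was high in a single sample, KO at day 2. It stood at 1.53, 2.59 and 0.785 CPM in KO+N-KR at 3i, day 1 and day 2, at 2.11, 1.17 and 0.860 CPM in KO+WT, at 1.32, 2.59 and 5.60 CPM in KO, and at 1.13, 1.78 and 0.460 CPM in f/f. The day 2 values rest on 125 reads in KO and 10 in f/f, with 95% Poisson intervals of 4.66 to 6.67 CPM and of 0.221 to 0.847 CPM. At that time the ratio was 10.3-fold, computed with a prior count of 2. Over the 3 states Gata3 was higher in KO than in f/f in 3 of 3 states but missed the threshold (log2 fold change 1.53 ± 0.57, adjusted p = 0.103). In KO+WT against KO its log2 fold change was -1.23 ± 0.55 (adjusted p = 0.152), and in KO+N-KR against KO it was -0.98 ± 0.54 (adjusted p = 0.243). Without 3i, Gata3 passed in KO against f/f (log2 fold change 1.99, adjusted p = 0.0238). Exons of Gata3 share 155 bases with the antisense gene Gm13256, and the strand setting of the counts is not given in the sources used here.

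Gata2, a factor of giant cells and of blood progenitors, had a lower level in KO at 3i and a higher one at day 2, both relative to f/f. It stood at 11.7, 1.06 and 0.883 CPM in KO+N-KR at 3i, day 1 and day 2, at 17.1, 0.777 and 1.33 CPM in KO+WT, at 5.02, 0.278 and 2.51 CPM in KO, and at 11.3, 0.611 and 0.553 CPM in f/f. KO was thus the lowest of the 4 genotypes at 3i, with 118 reads against 280 in f/f, and at day 1, with 6 reads against 12 in f/f. At day 2 KO was the highest, with 56 reads against 12 in f/f. KO over f/f was 0.450-fold at 3i, 0.526-fold at day 1 and 4.03-fold at day 2. Averaged over states these opposite differences gave a log2 fold change of -0.15 ± 0.51 (adjusted p = 0.886), which became 1.15 without 3i (adjusted p = 0.228) and -1.16 without day 2 (adjusted p = 0.0468). For KO+WT against KO it was 0.77 ± 0.49 (adjusted p = 0.318), and without day 2 it was 1.72 (adjusted p = 0.00338). Feeder fibroblast markers, 16 genes, summed to 469, 778, 517 and 535 CPM at 3i in KO+N-KR, KO+WT, KO and f/f, and to between 61.5 and 148 CPM in the embryoid bodies. The 3i level of Gata2 and the feeder sum were both highest in KO+WT, while KO and f/f had close feeder sums and unequal Gata2. The part of feeder RNA in the Gata2 level was not tested.

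Tfap2a, which encodes AP-2 alpha of trophoblast, surface ectoderm and neural crest, was low in every sample. It ranged from 1.20 to 3.26 CPM over the 12 samples, with 26 to 81 reads. At 3i, day 1 and day 2 it stood at 2.34, 1.85 and 1.79 CPM in KO and at 3.26, 2.80 and 1.20 CPM in f/f. Day 2 was the lowest state in both. The log2 fold change of KO against f/f was -0.24 ± 0.22 (adjusted p = 0.533), lower in 2 of 3 states. Its exons overlap 3 antisense genes, Gm26688, Gm47061 and Gm47067, over 73 to 380 bases.

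Hand1, a factor needed for trophoblast giant cells, had 3 to 29 reads per sample. It stood at 0.239, 1.30 and 0.785 CPM in KO+N-KR at 3i, day 1 and day 2, at 0.216, 0.534 and 0.391 CPM in KO+WT, at 0.128, 0.694 and 1.30 CPM in KO, and at 0.523, 0.458 and 0.368 CPM in f/f. Its level was lowest in KO at 3i and reached its highest values in KO at day 2 and KO+N-KR at day 1. Neither KO against f/f (log2 fold change 0.48 ± 0.53, adjusted p = 0.596) nor KO+N-KR against KO+WT (1.00 ± 0.55, adjusted p = 0.767) passed. The sign of the first depends on day 2, without which it was -0.45 (adjusted p = 0.724).

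Cdx2, a homeobox factor that specifies the trophectoderm, was close to the limit of detection everywhere. It had 3, 4 and 1 reads in KO+N-KR at 3i, day 1 and day 2, 5, 6 and 3 in KO+WT, 0, 2 and 3 in KO, and 2, 4 and 1 in f/f. The 0 reads in KO at 3i allow a level of up to 0.128 CPM. It did not pass the filter on low counts and was not tested, and no difference was detectable at this depth.

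The keratins were present in every sample and differed among themselves. Krt8 stood at 13.8, 26.2 and 27.9 CPM in KO+N-KR at 3i, day 1 and day 2, at 16.6, 16.2 and 24.3 CPM in KO+WT, at 23.7, 23.2 and 36.2 CPM in KO, and at 20.1, 19.7 and 19.8 CPM in f/f. KO was above f/f and above KO+WT in 3 of 3 states, and f/f stayed within 19.7 to 20.1 CPM throughout. For KO against f/f the log2 fold change of Krt8 was 0.44 ± 0.17 (adjusted p = 0.117). For KO+WT against KO it was -0.53 ± 0.17 (adjusted p = 0.0515), just outside the threshold of 0.05, and without 3i both comparisons passed (0.57, adjusted p = 0.0187, and -0.55, adjusted p = 0.0101). For KO+N-KR against KO it was -0.29 ± 0.17 (adjusted p = 0.269), with KO+N-KR above KO at day 1. Krt8 shares 101 bases of exon with Gm36026 on the opposite strand.

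Krt18 was high at day 2 in every genotype. It stood at 19.2, 28.9 and 78.5 CPM in KO+N-KR at 3i, day 1 and day 2, at 21.4, 24.1 and 88.2 CPM in KO+WT, at 25.0, 30.6 and 74.1 CPM in KO, and at 20.9, 25.7 and 73.2 CPM in f/f. The values of the 4 genotypes at day 2 all lay above every value at 3i and day 1. KO against f/f gave a log2 fold change of 0.17 ± 0.11 (adjusted p = 0.320).

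Krt19 at day 2 was highest in KO. It stood at 6.75, 6.68 and 4.51 CPM in KO+N-KR at 3i, day 1 and day 2, at 8.82, 5.24 and 4.73 CPM in KO+WT, at 7.23, 6.76 and 9.54 CPM in KO, and at 9.78, 6.47 and 3.22 CPM in f/f. In the 3 other genotypes day 2 was the lowest state, and in KO it was the highest. Across states KO against f/f gave a log2 fold change of 0.36 ± 0.27 (adjusted p = 0.424), which was -0.21 without day 2 (adjusted p = 0.572).

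**Figure D2:**
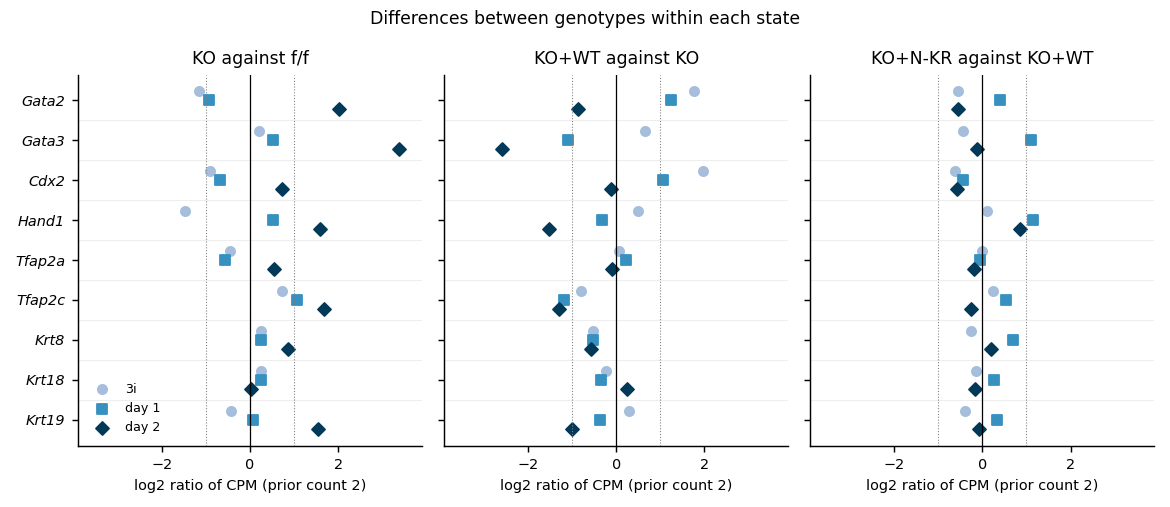
Log2 ratio of CPM (horizontal axis, prior count 2) of each of the 9 genes within 3i, day 1 and day 2, for KO against f/f, KO+WT against KO and KO+N-KR against KO+WT; each point compares 2 single samples and dotted lines mark 2-fold. At day 2 all 9 points of KO against f/f lie to the right of 0, with Gata3 at 3.36, and 8 of 9 points of KO+WT against KO lie to the left. In KO+WT against f/f, not drawn, all 9 day 2 ratios were above 0 too.

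Within a state, there is 1 sample per genotype and no test, so genes were called on the size of the ratio (2-fold or more, and 5 CPM or more in whichever sample was higher). For KO against f/f, Gata2 was called lower at 3i, where 0.505% of all genes were called, and Tfap2c higher at day 1, where 0.548% were. At day 2 Gata3, Tfap2c and Krt19 were called higher in KO, 3 of the 9 genes, of which 4 were under 5 CPM in both samples, beside 1.97% of all genes in either direction and 1.8% higher in KO. With a minimum of 10 CPM in the higher sample 1 gene was left, and with 1 CPM there were 5. All 9 genes had a ratio above 0 at day 2, as did 43.4% of all genes with 5 CPM and 51.3% of those with any read. The smallest of the 9 was Krt18, at 1.01-fold. In KO+WT against f/f at day 2 all 9 were above 0 as well, from 1.05-fold for Hand1 to 2.20-fold for Gata2. KO+N-KR at day 2 also stood above f/f for all 9, though for Cdx2 on 1 read in each sample. A level above that of f/f at day 2 was thus not limited to KO, and f/f was the lowest of the 4 genotypes for each gene. All of these comparisons share the f/f sample. Against it, the median log2 ratio of the 9 was 1.54 in KO and 0.46 in KO+WT. Stratified epithelium markers, 8 genes, summed to 26.2 CPM in KO and 10.3 CPM in f/f at day 2. This sum rests on Grhl3, at 19.7 CPM in KO and 7.92 CPM in f/f, and on Krt17, and the other 6 markers were under 1 CPM in every sample, with Krt5, Krt15, Trp63 and Tfap2b at 0 in KO at day 2. Extraembryonic endoderm markers, 14 genes, summed to 649 CPM in KO and 571 CPM in f/f at day 2, where all 14 were above 1 CPM in KO and 12 in f/f. Lamb1, Col4a1 and Sparc, which other cells express too, held most of that sum. Gata4 was 9.45 CPM in KO and 4.65 CPM in f/f, and Sox7 was 3.85 CPM in KO and 0.737 CPM in f/f. The median log2 ratio was 0.41 over the 9 markers with 5 CPM or more in the higher sample. The part of these cells in the day 2 differences was not tested.

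Both rescue lines were set against KO in the same way. For KO+WT against KO, Gata2 was called higher at 3i (0.723% of all genes called), Tfap2c lower at day 1 (1.66%), and Gata3 and Tfap2c lower at day 2 (2.66%). Krt19 at day 2 was 4.73 CPM in KO+WT against 9.54 CPM in KO, just short of a 2-fold ratio. For KO+N-KR against KO, Gata2 was called higher at 3i (1.02% of all genes called), no gene of the group at day 1 (1.47%), and Gata3, Tfap2c and Krt19 lower at day 2 (3.36%). KO is shared between these comparisons and KO against f/f, so a single KO sample enters all of them.

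Between the rescue lines no gene of the group was called. In KO+N-KR against KO+WT, edgeR called 0 of 8 genes, beside 0.552% of all genes, and 1115 of the 15220 genes had an unadjusted p under 0.05. DESeq2 called 0 of 8 as well. By size 0 of the 9 genes passed 2-fold at 3i (0.487% of all genes called), day 1 (0.407%) or day 2 (0.241%). At 1 CPM as the minimum, 2 genes passed at day 1. They were Gata3, at 2.59 CPM in KO+N-KR and 1.17 CPM in KO+WT, and Hand1, at 1.30 CPM in KO+N-KR and 0.534 CPM in KO+WT. For Tfap2c the log2 fold change was 0.14 ± 0.16 (adjusted p = 0.943) and for Krt8 0.24 ± 0.18 (adjusted p = 0.867). Krt8 at day 1 was 26.2 CPM in KO+N-KR and 16.2 CPM in KO+WT. At that state the 14 extraembryonic endoderm markers summed to 960.5 CPM in KO+N-KR and 680.1 CPM in KO+WT, and 6 of 14 rose and 0 fell in KO+N-KR against KO+WT across states, with a median log2 fold change of 1.09 against 0.00 over all genes. Their part in the Krt8 level was not tested. In KO+WT against f/f edgeR called 0 of 8 genes, beside 8.82% of all genes, with 3765 genes at an unadjusted p under 0.05.

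**Figure D3:**
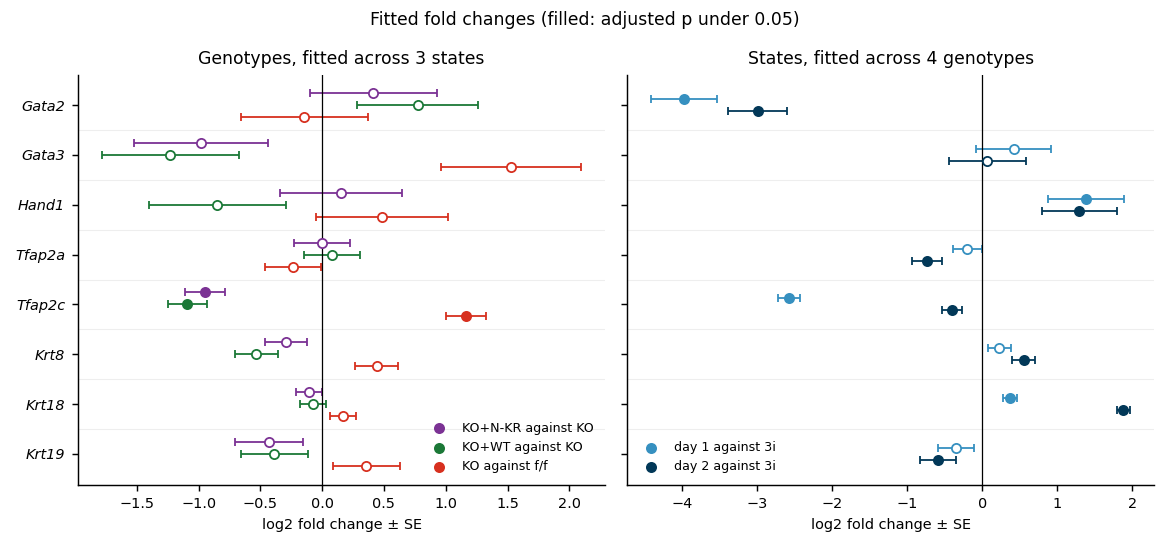
Log2 fold change ± SE (horizontal axes) of the 8 tested genes in edgeR's fit over 12 samples, for genotypes across 3 states (left) and for states across 4 genotypes (right); filled points passed an adjusted p of 0.05. Among genotype comparisons only Tfap2c is filled, at 1.17 for KO against f/f, -1.09 for KO+WT against KO and -0.95 for KO+N-KR against KO.

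As for all genes, more of these genes were called between states than between genotypes. In day 1 against 3i, 2 of 8 genes fell and 2 rose, beside 65.6% of all genes called. Gata2 fell 15.8-fold (log2 fold change -3.98 ± 0.44, adjusted p = 3.06e-06, lower in 4 of 4 genotypes) and Tfap2c fell 6.00-fold (log2 fold change -2.58 ± 0.15, adjusted p = 7.76e-09, lower in 4 of 4). Krt18 rose 1.29-fold (adjusted p = 0.00393) and Hand1 rose 2.60-fold (adjusted p = 0.0270). Hand1 was higher in 3 of 4 genotypes and lost the call without KO+N-KR (adjusted p = 0.212) or without KO+WT (adjusted p = 0.0685).

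In day 2 against 3i, 3 of 8 genes rose and 4 fell, beside 63.5% of all genes called. Krt18 rose 3.68-fold (log2 fold change 1.88 ± 0.09, adjusted p = 2.08e-09, higher in 4 of 4 genotypes). Krt8 rose 1.46-fold (adjusted p = 0.00577), though in f/f it was 19.8 CPM at day 2 and 20.1 CPM at 3i. Hand1 rose 2.45-fold (adjusted p = 0.0373), a call lost without KO+N-KR, KO+WT or KO, with adjusted p-values of 0.114, 0.0674 and 0.307, and also without replicate 1 (0.105) or with DESeq2 (0.0648). Gata2 fell 7.97-fold (log2 fold change -2.99 ± 0.39, adjusted p = 1.84e-05). Within genotypes its fall was 1.96-fold in KO, 12.1-fold in KO+N-KR and in KO+WT, and 17.6-fold in f/f. Tfap2a fell 1.67-fold (adjusted p = 0.00527), a call lost without replicate 1 (adjusted p = 0.0912). Tfap2c fell 1.32-fold (adjusted p = 0.0161), with KO as the exception at 166 CPM at day 2 and 149 CPM at 3i, and the call was lost without KO+N-KR (adjusted p = 0.0908) or f/f (adjusted p = 0.138). Krt19 fell 1.51-fold (adjusted p = 0.0422), again with KO as the exception, and the call was lost without KO+N-KR, KO+WT or f/f (adjusted p = 0.0921, 0.164 and 0.296), or without replicate 1 or 2 (0.0559 and 0.0542). Gata3 gave a log2 fold change of 0.07 ± 0.51 (adjusted p = 0.919), and without KO it fell by 1.13 on the log2 scale (adjusted p = 0.0121). In day 2 against day 1, Tfap2c rose 4.54-fold (adjusted p = 1.33e-07), Krt18 rose 2.86-fold (adjusted p = 4.66e-08) and Tfap2a fell 1.45-fold (adjusted p = 0.0381), 3 of 8 beside 55.3% of all genes. The Tfap2a call was lost without KO+N-KR, KO+WT or f/f (adjusted p = 0.105, 0.0866 and 0.230), without replicate 1 or 2 (0.160 and 0.109), with DESeq2 (0.0811) and with library totals in place of TMM (0.0657), where Krt8 was called instead.

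Because the KO effect moved with the state, the effect at day 2 minus that at 3i was tested over the 24 libraries as 12 groups of 2. Whether such libraries came from separate cultures is not stated, so that p covers the spread between libraries, which could be technical, and not that between lines. For KO against f/f the difference passed for 6 of 8 genes, all positive, beside 26.3% of all genes in either direction and 12.8% with a positive one. It was 3.75 ± 0.94 on the log2 scale for Hand1 (adjusted p = 0.00132), 3.36 ± 0.62 for Gata3 (adjusted p = 1.31e-05), 3.34 ± 0.46 for Gata2 (adjusted p = 1.35e-08) and 2.01 ± 0.25 for Krt19 (adjusted p = 1.02e-09). Tfap2c differed by 0.97 ± 0.07 (adjusted p = 1.20e-20) and Krt8 by 0.65 ± 0.13 (adjusted p = 5.90e-05). Tfap2a, at 1.07 ± 0.46 (adjusted p = 0.0773), and Krt18, at -0.22 ± 0.10 (adjusted p = 0.105), did not pass. For Hand1 the values rest on 3 and 29 reads in KO at 3i and day 2, against 13 and 8 in f/f. For KO+N-KR against KO+WT 2 of 8 genes passed, beside 12.5% of all genes: Tfap2c at -0.47 ± 0.08 (adjusted p = 2.12e-06) and Krt8 at 0.48 ± 0.15 (adjusted p = 0.0235).

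The balance of the keratin transcripts differed between states. Per kilobase, Krt8 over the sum of Krt18 and Krt19 was 0.400, 0.549 and 0.248 in KO+N-KR at 3i, day 1 and day 2, 0.412, 0.410 and 0.193 in KO+WT, 0.551, 0.463 and 0.321 in KO, and 0.495, 0.457 and 0.191 in f/f. Day 2 had the lowest value in each genotype, and among the day 2 samples KO had the highest. Krt18 over Krt19 at day 2 was 19.1 in KO+N-KR, 20.4 in KO+WT, 8.52 in KO and 24.9 in f/f. These are ratios of single samples, with no replicate check.

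**Figure D4:**
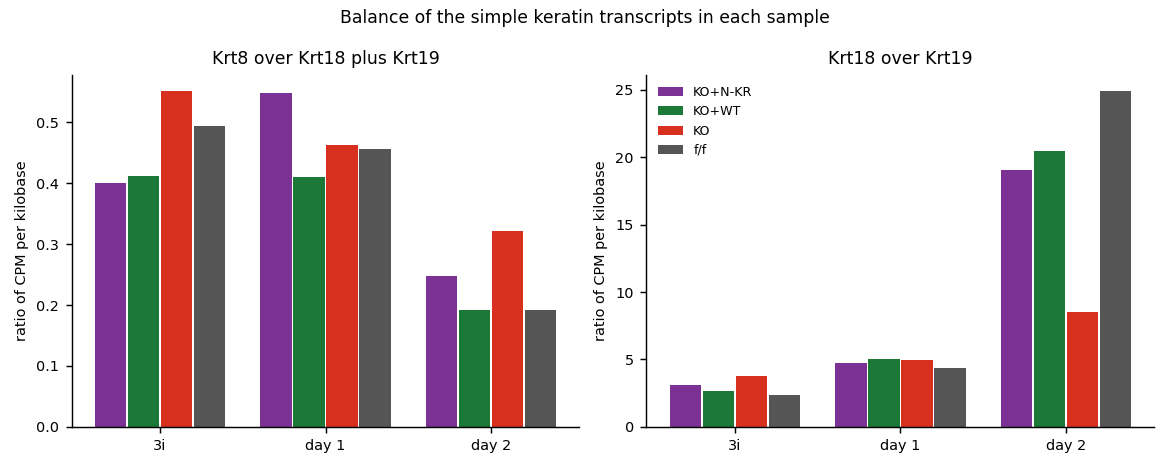
Ratios of CPM per kilobase of exon (vertical axes, from 0) of Krt8 over Krt18 plus Krt19 (left) and of Krt18 over Krt19 (right) in each of the 12 samples, by state and genotype; each bar is 1 sample. At day 2 KO had a Krt18 over Krt19 ratio of 8.52, against 24.9 in f/f.

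Of the other 49 keratin rows, 12 were tested, and 36 of all 52 never exceeded 0.5 CPM. Those with a mean of at least 5 CPM were Krt7, Krt17 and Krt42. Krt7, a type II partner of simple epithelia, stood at 24.3, 2.11 and 4.76 CPM in KO+N-KR at 3i, day 1 and day 2, at 11.5, 2.19 and 6.96 CPM in KO+WT, at 12.0, 1.71 and 8.24 CPM in KO, and at 13.0, 2.19 and 3.04 CPM in f/f. It fell in day 2 against 3i (log2 fold change -1.36 ± 0.26, adjusted p = 0.000406), where Krt8 and Krt18 rose. Krt17 fell in KO+WT against KO (-0.89 ± 0.22, adjusted p = 0.0160) and Krt42 did as well (-0.58 ± 0.14, adjusted p = 0.0157). Across states, 0 of the 12 were called in KO against f/f, beside 8.77% of all genes, with a median log2 fold change of 0.21. At day 2, 3 other keratins had 5 CPM or more in the higher sample of KO and f/f. Of these, 2 were at least 2-fold higher in KO and 0 lower, beside 1.97% of all genes in either direction. They were Krt7 and Krt17, the latter at 6.09 CPM in KO and 1.93 CPM in f/f. Krt7 was also more than 2-fold higher in KO+WT than in f/f at day 2.

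Across states, other trophoblast genes were called at a share near that of all genes in KO against f/f. In the list of 20, of which 19 were in the table and 16 were tested, 1 rose and 1 fell in that comparison, where 8.77% of all genes were called, with a median log2 fold change of 0.17 against 0.00 over all genes. Gcm1, a factor of the labyrinth, rose (1.54 ± 0.38, adjusted p = 0.0296), at 0.340, 1.25 and 1.88 CPM in KO against 0.0805, 0.662 and 0.460 CPM in f/f. Ascl2, a factor of the spongiotrophoblast, fell (-0.92 ± 0.24, adjusted p = 0.0354). At day 2, 10 genes of the list had 5 CPM or more in the higher sample of KO and f/f. Of these, 2 were at least 2-fold higher in KO and 0 lower, beside 1.97% of all genes in either direction. They were Esx1, at 8.42 CPM in KO and 3.18 CPM in f/f, and Rhox9, at 5.74 and 1.47 CPM. The median log2 ratio of the 10 was 0.18. At 3i and day 1, 0 genes were higher and 1, Ascl2, was lower. Relative to KO, 0 of 16 rose and 3 fell in KO+WT, Eomes, Gcm1 and Rhox9, beside 15.8% of all genes called, with a median of -0.26. Eomes, a T-box factor of trophoblast stem cells and mesendoderm, had 20.9, 8.50 and 8.91 CPM in KO+WT over the 3 states, while KO had 34.1, 27.6 and 18.0 CPM. In KO+N-KR against KO, where 15.4% of all genes were called, 2 of 16 rose and 5 fell, led by Prl2c2 (1.58 ± 0.33), Rhox9 (-1.55 ± 0.30), Rhox6 (-1.32 ± 0.31) and Gcm1 (-1.20 ± 0.37). Prl3d1, a hormone gene of giant cells, was at 0 in all 12 samples, Tpbpa of the spongiotrophoblast in 11 of 12, and Elf5 of trophoblast stem cells reached at most 0.370 CPM.

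Among 20 epithelial junction and adhesion genes, all tested, 3 rose and 0 fell in KO against f/f, where 8.77% of all genes were called, with a median log2 fold change of 0.04. They were the desmosomal genes Dsp (1.07 ± 0.24, adjusted p = 0.0211), Dsg2 (0.75 ± 0.15, adjusted p = 0.0146) and Dsc2 (0.84 ± 0.22, adjusted p = 0.0369), whose products anchor keratin filaments. Jup (0.12 ± 0.08), Pkp2 (-0.08 ± 0.07) and Pkp3 (-0.003 ± 0.15), desmosomal genes of the same list, were not called. Dsp, Dsg2 and Dsc2 also fell in KO+WT against KO, in which Grhl2, an epithelial transcription factor, rose (0.83 ± 0.18, adjusted p = 0.00811). In that comparison 15.8% of all genes were called. In KO+N-KR against KO, where 15.4% of all genes were called, Dsg2 fell (-0.85 ± 0.15, adjusted p = 0.00234). Grhl2 (0.73 ± 0.18, adjusted p = 0.0157) and Jup (0.29 ± 0.08, adjusted p = 0.0233) rose there. Dsp (-0.62 ± 0.23, adjusted p = 0.0917) and Dsc2 (-0.53 ± 0.22, adjusted p = 0.119) did not pass. KO is shared between these comparisons. In day 2 against 3i, where Krt8 and Krt18 rose, 11 of 20 rose and 5 fell, beside 63.5% of all genes called, with a median of 0.56, led by Grhl2 (3.03 ± 0.17), Esrp1 (2.10 ± 0.12), Ovol1 (1.63 ± 0.34) and Dsg2 (-1.60 ± 0.13).

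Of 10 paralogues of the GATA, CDX, HAND and AP-2 families, 6 were tested. Across states, 0 of the 6 were called in KO against f/f, beside 8.77% of all genes, with a median log2 fold change of 0.20. At day 2, 2 paralogues had 5 CPM or more in the higher sample of KO and f/f. Of these, 1 was at least 2-fold higher in KO, Gata4 at 9.45 CPM against 4.65 CPM, beside 1.97% of all genes in either direction. In KO+N-KR against KO, where 15.4% of all genes were called, Cdx1 fell (-1.24 ± 0.31, adjusted p = 0.0176). Gata4 (-1.20 ± 0.27, adjusted p = 0.0103) and Gata6 (-1.40 ± 0.34, adjusted p = 0.0153), factors of extraembryonic endoderm, fell in KO+WT against KO, where 15.8% of all genes were called. Against f/f, Gata6 was lower in KO+WT too (-1.34 ± 0.35, adjusted p = 0.0295), and its log2 fold change in KO was 0.06 ± 0.30 (adjusted p = 0.917). Gata4 gave -0.72 ± 0.28 in KO+WT against f/f (adjusted p = 0.132) and 0.48 ± 0.26 in KO against f/f (adjusted p = 0.243). In day 2 against 3i, where 63.5% of all genes were called, the largest changes among the called paralogues went both ways. Cdx1 (-4.49 ± 0.27, adjusted p = 1.25e-08) and Gata1 (-1.09 ± 0.38, adjusted p = 0.0225) fell, while Cdx4 (2.38 ± 0.49, adjusted p = 0.000832) and Tfap2e (2.27 ± 0.58, adjusted p = 0.00362) rose. Gata5, Hand2, Tfap2b, Tfap2d and Tfap2e did not reach 1 CPM in any sample.

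Over the 12 samples, the gene most like Tfap2c in log2 CPM was Sirpa (Pearson's r = 0.988), followed by Usp2 and Fam115a (both r = 0.98). Krt18 was closest to Speg (r = 0.983), Spire1 (r = 0.981) and Stk39 (r = 0.979). Krt19 was closest to Col5a3 (r = 0.899), and Krt8 to Sgcb (r = 0.876). Between the members, Krt8 and Krt18 correlated with r = 0.66, Krt8 and Krt19 with r = 0.09, and Krt18 and Krt19 with r = -0.54. These points share genotypes, states and scaling, and 10736 genes with a mean of at least 5 CPM were searched.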

How the data were processed

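Poly(A) RNA-seq was measured in 24 libraries. The deposited table holds the authors' unnormalized counts of 23284 genes in 30 columns. Only the 24 columns whose headers match a labelled library entered the work, and 6 more did not. The submitters' processing notes name STAR 2.5.2b, DESeq2 and the mm9 build. Not given in the sources used here are the annotation, the DESeq2 version, and the tool and strand setting of the counting. Library totals ran from 7553683 to 14426034 counts. Nothing in the labels says that the libraries of a group came from separate cultures, so their spread may be technical.

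The 2 libraries of a group were summed. Sums were scaled by TMM and fitted with edgeR (4.0.16, R 4.3.3, filterByExpr, quasi-likelihood F-test, additive genotype and state, Benjamini-Hochberg over 15220 genes, threshold 0.05), with 6 residual degrees of freedom and a common coefficient of variation of 7.97%. The 8 genes of interest that passed the filter could be tested. The SE of a fold change was computed from its size and F value. Changes of an effect between states were fitted over 24 libraries (14619 genes, 12 residual degrees of freedom). Ratios within a state used a prior count of 2. Poisson intervals are at the 95% level and, like the limit of 3 counts for a count of 0, cover counting error only. Exon lengths and overlaps came from GENCODE M21 (GRCm38). The fits were tested on simulated counts.

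The genes and all lists were chosen with earlier results of these data known. From each list up to 4 called genes with the largest fold change were named, and for the likeness search the 3 genes with the highest r. Alternatives were library totals in place of TMM, DESeq2 (1.42.0), no filter, other minimum levels, leaving out each replicate, state or genotype, only the genotypes compared, and 24 libraries with and without a replicate block.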

Additional observations from a re-analysis of the deposited data

Results flagged for a closer look

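The effect of KO against f/f on 6 genes differed between day 2 and 3i in a test of the difference itself, fitted with edgeR over 24 libraries. On the log2 scale, the effect at day 2 minus that at 3i was 3.75 for Hand1, 3.36 for Gata3, 3.34 for Gata2, 2.01 for Krt19, 0.97 for Tfap2c and 0.65 for Krt8. For Gata2, Hand1 and Krt19 the effect itself had opposite signs, at 2.16, 1.79 and 1.56 at day 2 and at -1.18, -1.96 and -0.45 at 3i. For Gata3, Tfap2c and Krt8 it was positive in both states. The difference in Hand1 rests on 3 to 29 reads per sample, and DESeq2 gave no adjusted p for Hand1 and Gata3 in this comparison.

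For KO+N-KR against KO+WT, the effect at day 2 minus that at 3i was -0.47 for Tfap2c and 0.48 for Krt8. Tfap2c had an effect of -0.25 at day 2 and 0.22 at 3i, and Krt8 one of 0.21 at day 2 and -0.28 at 3i. Both libraries of a group may be technical replicates, in which case these p-values measure mainly sequencing noise.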

How the results depend on the processing

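Tfap2c kept its direction and passed in KO against f/f, KO+WT against KO and KO+N-KR against KO under every alternative run, except KO against f/f without day 1. The number of genes called in KO against f/f was 1, and 3 without 3i, 0 without day 1, 2 without day 2 and 2 with DESeq2. In KO+WT against KO it was 1, and 2 with no filter, 3 without 3i, 2 without day 2, 2 with only the genotypes compared and 2 with DESeq2. Without a replicate it was 1 to 2 there, 4 to 6 in day 2 against 3i (7) and 2 to 2 in day 2 against day 1 (3). KO+N-KR against KO gave 2 without day 2. Day 2 against 3i gave 4 without KO+N-KR, and day 2 against day 1 gave 5 without KO. DESeq2 called 1 in the change of KO+N-KR against KO+WT. By size, KO against f/f at day 2 gave 1 at 10 CPM and 5 at 1 CPM, KO+WT against KO gave 1 at day 2 at 10 CPM and 2 at day 1 at 1 CPM, and KO+N-KR against KO+WT gave 2 at day 1 at 1 CPM.

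Over 24 libraries, without or with a replicate block, 5 genes were called in KO against f/f, 5 in KO+WT against KO, 5 in KO+N-KR against KO, 2 in KO+N-KR against KO+WT, 1 in KO+WT against f/f and 7 in day 2 against day 1. Without the block these fits called 49.3%, 51.3%, 51.6%, 19.96%, 44.9% and 75.9% of all genes in the same order. With the block, 7 were called in day 1 against 3i, beside 81.1% of all genes. In every group, the libraries numbered 1 and 2 carry different name prefixes in the column headers, and what the prefixes stand for is not stated. Deviations of same-numbered libraries correlated at -0.02 to 0.05 over 66 pairs of groups, so no shared shift in expression went with the number. The p-values of these fits cover only the spread between 2 libraries a group.

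Reversed values were in log2 fold change. Gata3 in day 2 against 3i (0.07) was -0.0022 to 0.33 without a replicate, -1.13 without KO, -0.22 with DESeq2, -0.34 over 24 libraries and -0.33 with the block. Gata2 in KO against f/f (-0.15) was 1.15 without 3i, 0.046 without day 1 and 0.23 with DESeq2, and in KO+WT against KO (0.77) it was -0.32 without 3i. Krt8 in KO+N-KR against KO+WT was -0.0057 without day 1. Without day 2, KO against f/f was -0.45 for Hand1 and -0.21 for Krt19, KO+N-KR against KO was 0.10 for Gata3, and KO+WT against f/f was -0.10 for Tfap2c. Except for Gata3 without KO, none of these reversed values passed. The cause was not tested. Depth limits Cdx2 and Hand1 most, at 0 to 6 and 3 to 29 reads per sample.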
